A study of Mus musculus with 10 samples.

Results

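The genes described here are the classical class I molecules of the mouse major histocompatibility complex (MHC) and the machinery that fills them with peptide: H2-K1, H2-D1, B2m, Tap1, Tap2, Tapbp, Psmb8, Psmb9 and Psmb10. Their probe sets were chosen by gene symbol, as those that the array annotation gives to 1 of these genes alone. They are 9 genes of the 12394 that have a probe set of their own, and they were read by 25 of the 22690 probe sets: 9 for H2-D1, 4 each for H2-K1 and Tap1, 2 each for B2m and Tapbp, and 1 for each of the remaining 4 genes. A further 3 probe sets carry the symbol of H2-K1 or H2-D1 together with another gene, and they are given apart. The 9 genes were picked with the difference between trained and untrained mice in these data already known, so that difference is given as a description with no test.

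The signals are those of right ventricular total RNA from 10 mice of strain 129SV, 1 Affymetrix expression array per mouse, in a study of how mice with a plakoglobin (+/-) genotype respond to training. Plakoglobin, encoded by Jup, is a protein of the desmosomes that hold heart muscle cells together. The trained plakoglobin (+/-) group held 4 mice of 6 months, 2 males and 2 females, and the trained wildtype group held 4 mice of 6 months, also 2 males and 2 females. The untrained plakoglobin (+/-) group was 1 female of 10 months, and the untrained wildtype group was 1 female of 10 months. Training was a swimming programme of 6 sessions per week in water kept at 35 °C, and a session grew from 5 to 90 min; all 10 mice had standard care. Training and age cannot be told apart here, and the untrained groups hold no male. The numbers in the sample titles of the untrained mice also lie well apart from those of the trained mice. What these numbers count is not stated, and anything that goes with them cannot be told apart from training either. The sources used here do not say how the plakoglobin allele was made or which mice came from 1 litter.

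On the array, Jup read 1992 to 3519.9 in mice labelled trained plakoglobin (+/-) and 2928 to 4322 in mice labelled trained wildtype, a log2 difference of -0.53 (SE 0.237; limma, adjusted p = 1). In the untrained pair it read 3157 in the mouse labelled plakoglobin (+/-) and 2387 in the mouse labelled wildtype, so Jup did not separate the genotypes and every genotype is given as labelled. The authors had scaled all arrays to 1 level, and median signals lay between 897.9 and 1149.6. RNA integrity and labelling can be followed by how much brighter the GAPDH control reads at its 3' end than at its 5' end. This GAPDH ratio was 2.98 for replicate 1 of the trained plakoglobin (+/-) mice, 17.8 for replicate 2 of the trained wildtype mice and 2.50 for their replicate 1. It was 0.849 to 1.02 on the other 7 arrays. Differences without the 3 arrays of high ratio are given for some genotype results, and only counts without them for sex. Of the 3, only trained wildtype replicate 2 is a female. Ventricular myocyte markers were bright. Myh6 read 217556 to 283419 in trained mice (median 239241), against 255585 and 269197 in the untrained plakoglobin (+/-) and wildtype mice. Of 3 atrial markers, Myl7, a light chain, read 40.0 to 729 in trained mice. It read 122.5 and 324 in the untrained plakoglobin (+/-) and wildtype mice. Sln read 68.5 to 700 in trained mice, and 199 and 126 in the untrained mice in the same order. Myl4, another atrial light chain, was brighter, at 1666 to 3234 in trained mice (median 1946). In the untrained plakoglobin (+/-) and wildtype mice Myl4 read 1448 and 1905.

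Class I molecules show fragments of the cell's own proteins at the surface, where cytotoxic T cells and natural killer cells read them. The fragments are cut by the proteasome, carried into the endoplasmic reticulum by the transporter TAP, and fitted into the groove of a heavy chain paired with beta-2 microglobulin. In the immunoproteasome, which interferon gamma induces, Psmb8, Psmb9 and Psmb10 take the places of the standard catalytic subunits Psmb5, Psmb6 and Psmb7. Heart muscle cells are known for low class I levels at rest, while endothelial cells and leukocytes carry more. All 9 genes except B2m and Psmb10 lie in the MHC region itself.

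The promoters of the heavy chains, of B2m and of the Tap1 and Psmb9 pair are shown because class I genes are known to answer NF-kappaB and interferon signals through sites in such stretches. The sequences are from RefSeq (assembly GRCm38.p6), whose promoter table matched 8 of the 9 genes by symbol; they are those of the reference genome and not of 129SV. Capitals mark the motif letters that were searched on both strands; the motifs were picked with these sequences in view, and the marked matches do not overlap.
H2-K1, chr17:34000358-34000477, minus strand: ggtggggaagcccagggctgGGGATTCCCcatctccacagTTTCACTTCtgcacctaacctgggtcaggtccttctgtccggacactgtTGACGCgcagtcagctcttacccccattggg
H2-D1, chr17:35262904-35263023, plus strand: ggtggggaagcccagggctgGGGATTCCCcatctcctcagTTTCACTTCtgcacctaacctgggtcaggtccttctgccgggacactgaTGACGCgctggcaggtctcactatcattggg
B2m, chr2:122147528-122147647, plus strand: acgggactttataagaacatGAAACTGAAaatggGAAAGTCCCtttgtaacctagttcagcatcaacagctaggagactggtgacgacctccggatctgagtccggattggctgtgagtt
Tap1 and Psmb9, the bases between their start sites, chr17:34187330-34187556, plus strand: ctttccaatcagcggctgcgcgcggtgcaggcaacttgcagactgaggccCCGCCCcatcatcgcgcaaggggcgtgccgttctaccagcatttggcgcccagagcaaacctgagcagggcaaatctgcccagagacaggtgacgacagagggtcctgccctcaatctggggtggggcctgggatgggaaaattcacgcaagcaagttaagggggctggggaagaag

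The H2-K1 and H2-D1 windows of 120 bases were identical at 109 positions (90.8%). Both held the kappaB core GGGATTCCC, found in 0.353% of the 32851 RefSeq promoter windows of the same table, and 20 bases further on the interferon response core TTTCACTTC, found in 0.505%. The CRE-like core TGACGC, found in 7.4% of windows, began 69 bases after the kappaB core in both. B2m held the kappaB core of another form, GGGACTTTC, on the opposite strand, where the print reads GAAAGTCCC, and 0.353% of windows held it on either strand. B2m also held GAAACTGAA, a match to the interferon-stimulated core GAAANNGAA that 8.56% of windows hold. Tap1 and Psmb9 start 226 bases apart and run away from each other, so these bases lie upstream of both genes. They held 1 GC box, GGGCGG, printed as CCGCCC on this strand, a motif of 35.7% of windows. These matches describe the letters, and binding was not measured.

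All 9 genes were lower in trained than in untrained mice by their representing probe set, the brightest one with 1 symbol, and at 8 of them every trained mouse lay below both untrained mice. The exception was Tap2. Over all 25 probe sets, 16 had every trained mouse below both untrained mice, 1 had every trained mouse above both, and at 8 the groups overlapped. Of all 22626 probe sets that are no control, 910 (4.02%) had every trained mouse below and 815 (3.6%) every trained mouse above. Of the 25 probe sets 15 had a log2 difference below -1, as did 1367 of the 22626 (6.04%). The median log2 difference was -1.58 over the 25 probe sets and -1.23 over the 9 genes, beside -0.0022 over the 13576 tested probe sets. Since the genes were picked on this contrast, nothing about them is read from these shares. Each log2 difference comes from a linear model with terms for genotype and sex, and because no untrained mouse was male its size rests on the 4 trained females and the 2 untrained ones. Ratios of geometric means take all 8 trained mice. In RNA of whole tissue, fewer cells of a type and less RNA per cell cannot be told apart.

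**Figure D1:**
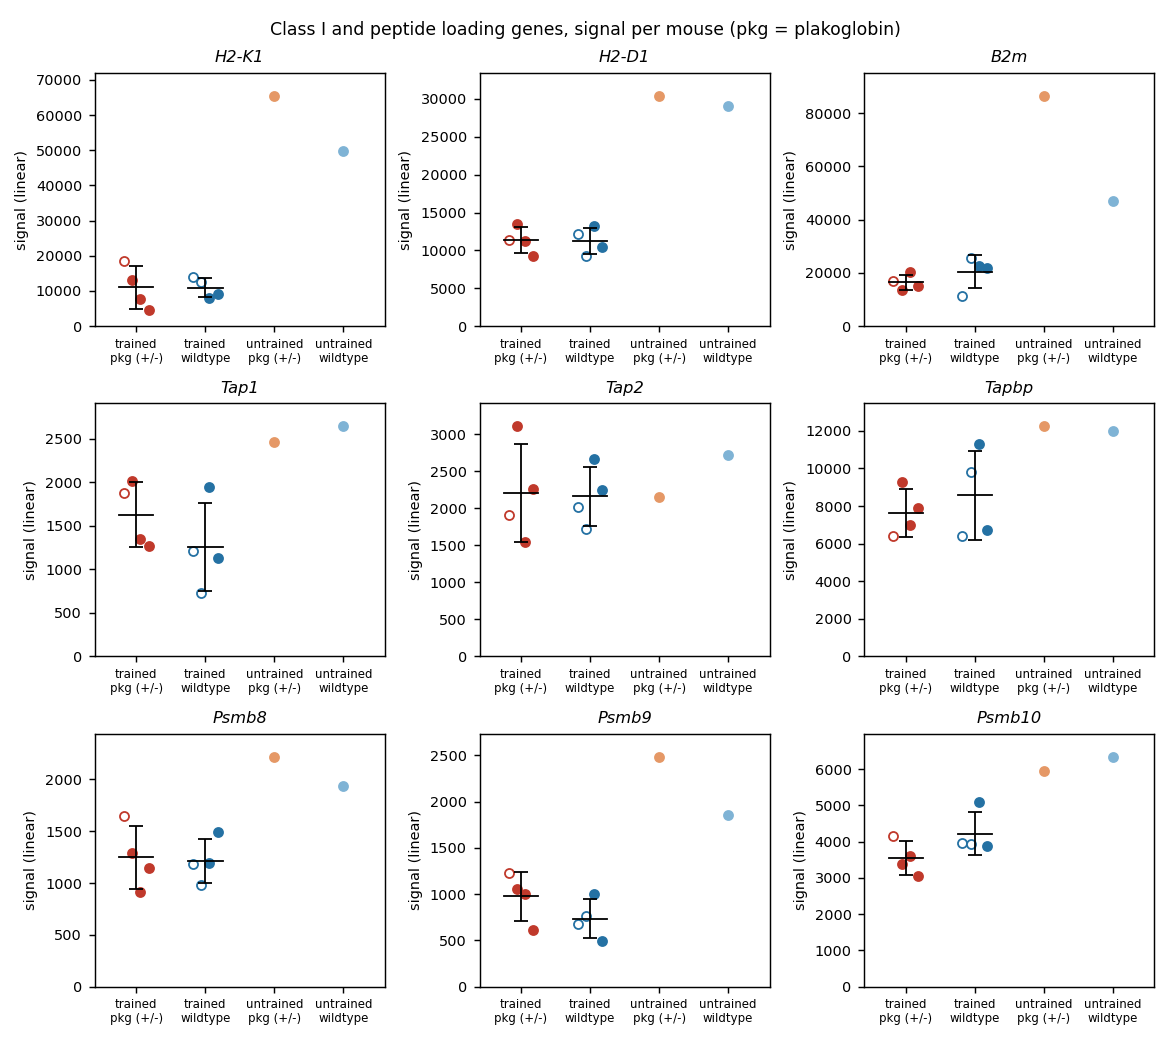
Signal of the representing probe set of each gene in every mouse, on linear axes that start at 0, in trained plakoglobin (+/-), trained wildtype, untrained plakoglobin (+/-) and untrained wildtype mice. Bars are the mean and SD of each trained group (n = 4), and open circles are the 3 arrays with a GAPDH ratio above 2. At every gene but Tap2 the 8 trained mice sit below both untrained mice.

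H2-K1, 1 of the 2 classical heavy chains read here, had the largest difference of the 9 genes. Its representing probe set, 1425336_x_at, read 18466, 13016, 7778 and 4672 in the trained plakoglobin (+/-) mice and 13869.5, 12518, 8139 and 9064 in the trained wildtype mice, against 65342 in the untrained plakoglobin (+/-) mouse and 49667 in the untrained wildtype mouse. The groups were far apart: the highest trained signal, in trained plakoglobin (+/-) replicate 1, was below the lower untrained one, while the trained mice themselves spread from 4672 to 18466. The geometric mean of the trained mice was 0.178 of that of the untrained mice, and the log2 difference was -2.83 (SE 0.386). The 3 arrays of high GAPDH ratio gave 18466, 13869.5 and 12518, 3 of the 4 highest trained values, and without them the log2 difference was -3.06. What part the ratio has in the trained spread was not tested.

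The other 3 probe sets of H2-K1 gave smaller differences. Probe set 1451931_x_at read 4857 to 7973 in trained mice (median 5849), against 17757 in the untrained plakoglobin (+/-) mouse and 17729 in the untrained wildtype mouse, a log2 difference of -1.58 (SE 0.231). Probe set 1427746_x_at read 1231 to 2013 in trained mice (median 1843), against 4566 in the untrained plakoglobin (+/-) mouse and 4778 in the untrained wildtype mouse, a log2 difference of -1.63 (SE 0.242). At both, each trained mouse was under both untrained ones, and the untrained pair read nearly alike. Probe set 1450534_x_at read 1128 to 3619.9 in trained mice (median 2222), against 4716 in the untrained plakoglobin (+/-) mouse and 3058 in the untrained wildtype mouse, a log2 difference of -0.78 (SE 0.453), and there trained wildtype replicate 4 reached above the untrained wildtype mouse. All 4 carry the suffix _x_at, which Affymetrix gives to probe sets that can also catch other sequences. Class I genes are near-identical to each other and differ between haplotypes, so signals of these probe sets are uncertain as to the gene. The sources used here do not give the allele each was designed on, and whether an allele moved any of them was not tested.

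H2-D1, the other classical heavy chain, was lower in trained mice at 7 of its 9 probe sets and below both untrained mice in every trained mouse at 5. The representing probe set 1425545_x_at read 11433, 13459.9, 11205 and 9306 in the trained plakoglobin (+/-) mice and 12192, 9250.1, 13166.5 and 10475 in the trained wildtype mice, against 30355 in the untrained plakoglobin (+/-) mouse and 29108.5 in the untrained wildtype mouse. The trained mice were close together, and the groups were well apart, with a geometric mean ratio of 0.377 and a log2 difference of -1.57 (SE 0.172). With the 3 arrays of high GAPDH ratio left out, the difference was -1.53. Probe set 1451784_x_at, which was also bright, read 7618 to 12566 in trained mice (median 9782), against 52809 in the untrained plakoglobin (+/-) mouse and 30088 in the untrained wildtype mouse, a log2 difference of -2.17 (SE 0.240). The dimmer 1451683_x_at read 622 to 1316 in trained mice (median 994), against 2297 in the untrained plakoglobin (+/-) mouse and 4073 in the untrained wildtype mouse, a log2 difference of -1.74 (SE 0.307). The untrained pair was in the opposite order at these 2 probe sets: the untrained plakoglobin (+/-) mouse was higher than the untrained wildtype mouse at 1451784_x_at and lower at 1451683_x_at.

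The other 6 probe sets of H2-D1 were dim, and only 1425614_x_at of them passed the filter on low signals. It read 585 to 1364 in trained mice (median 905), against 1077 in the untrained plakoglobin (+/-) mouse and 677 in the untrained wildtype mouse, so the groups overlapped, and its log2 difference of 0.37 (SE 0.347) had the opposite sign to the bright probe sets. Of those that did not pass the filter, 1426324_at read 85.5 to 564 in trained mice (median 362), against 1829.7 in the untrained plakoglobin (+/-) mouse and 1597 in the untrained wildtype mouse, with every trained mouse lower, a log2 difference of -2.47 (SE 0.675). Probe set 1452544_x_at had every trained mouse lower too, at -1.76 (SE 0.570). The groups overlapped at 1450170_x_at, at -1.67 (SE 0.871), and at 1427651_x_at, at -1.80 (SE 0.564); both had 3 trained mice at or under the floor of 104. They also overlapped at 1451934_at, which was higher in trained mice by 0.60 (SE 0.910) and read 71.0 in the untrained plakoglobin (+/-) mouse. These dim values depend on the floor, to which signals were raised before the log was taken.

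The 3 probe sets with several symbols divided. The one annotated to H2-K1 and H2-D1 together, 1424948_x_at, read 882 to 2571 in trained mice (median 1522), against 3512 in the untrained plakoglobin (+/-) mouse and 3617 in the untrained wildtype mouse, with every trained mouse lower and a log2 difference of -1.58 (SE 0.321). The one annotated to H2-Q5 and H2-K1, 1451593_at, read 1862 to 3446 in trained mice (median 2386), against 1329.7 in the untrained plakoglobin (+/-) mouse and 1792 in the untrained wildtype mouse, with every trained mouse higher and a log2 difference of 0.75 (SE 0.301). The third, annotated to Gm38417, H2-Q2 and H2-D1, was at or under the floor in 7 trained and both untrained mice. By suffix, over all 9 genes, every trained mouse was below both untrained mice at 7 of the 12 _x_at probe sets, 6 of the 9 _at and 3 of the 4 _a_at. Most of these _at probe sets belong to the loading genes: H2-K1 has none of its own, and of those of H2-D1 the dim 1426324_at was lower and 1451934_at higher.

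**Figure D2:**
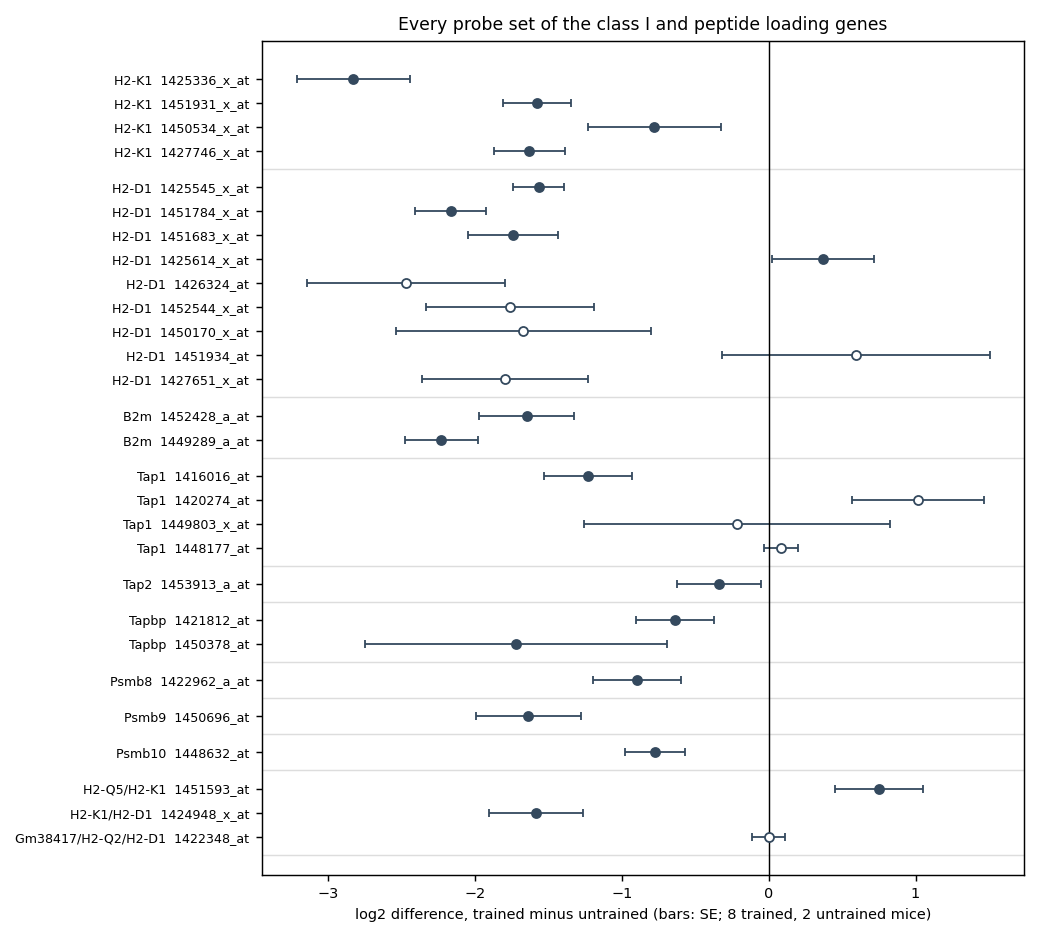
Log2 difference between trained and untrained mice for each of the 25 probe sets and the 3 probe sets with several symbols, with SE bars (8 trained, 2 untrained mice). Filled points passed the filter on low signals and open points did not. H2-K1 and B2m lie left of 0 throughout, while H2-D1 and Tap1 have probe sets on both sides.

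B2m encodes beta-2 microglobulin, the light chain that every classical class I molecule needs to reach the surface. The representing probe set 1452428_a_at read 16923.5, 13645, 20298 and 14984 in the trained plakoglobin (+/-) mice and 11414, 25651, 22636 and 21694 in the trained wildtype mice, against 86314 in the untrained plakoglobin (+/-) mouse and 46892 in the untrained wildtype mouse. Every trained mouse was below both untrained mice, with a geometric mean ratio of 0.280 and a log2 difference of -1.65 (SE 0.326). The untrained plakoglobin (+/-) mouse decided much of the size: without it the difference was -1.08, and without the untrained wildtype mouse it was -2.22. The other probe set, 1449289_a_at, read 21622, 11712, 11900.3 and 9679 in the trained plakoglobin (+/-) mice and 18556, 18160.2, 23858 and 13842 in the trained wildtype mice, against 49445 in the untrained plakoglobin (+/-) mouse and 75845 in the untrained wildtype mouse, and its log2 difference was -2.23 (SE 0.25). Here too the groups did not overlap, but the untrained pair was in the opposite order, with the wildtype mouse higher. The order of the trained mice also differed, and over the 8 trained mice the log2 signals of both probe sets had a Pearson correlation of only 0.257 (Spearman 0.333). With the 3 arrays of high GAPDH ratio left out, the representing probe set gave -1.75.

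Tap1 and Tap2 form the transporter that carries peptides into the endoplasmic reticulum. Tap1, by 1416016_at, read 1872, 2013, 1344 and 1269 in the trained plakoglobin (+/-) mice and 1215, 725, 1947 and 1131 in the trained wildtype mice, against 2463 in the untrained plakoglobin (+/-) mouse and 2640.3 in the untrained wildtype mouse. All trained mice were below both untrained mice, though trained plakoglobin (+/-) replicate 2 came near them, with a ratio of 0.538 and a log2 difference of -1.23 (SE 0.299). It was -0.96 without the untrained wildtype mouse and -1.50 without the untrained plakoglobin (+/-) mouse. The other 3 probe sets of Tap1 did not pass the filter and did not share this difference. Probe set 1420274_at read 282.5 to 535 in trained mice (median 414), against 147.5 in the untrained plakoglobin (+/-) mouse and 266 in the untrained wildtype mouse, with every trained mouse higher, a log2 difference of 1.02 (SE 0.449). Probe set 1449803_x_at read 90.5 to 769.6 in trained mice, against 828 in the untrained plakoglobin (+/-) mouse and 78.5 in the untrained wildtype mouse, and gave -0.22 (SE 1.04). Probe set 1448177_at was at or under the floor in 7 trained and both untrained mice.

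Tap2 was the gene at which the groups overlapped. Its single probe set 1453913_a_at read 1908, 3107, 1549 and 2260.3 in the trained plakoglobin (+/-) mice and 2012, 1722, 2663 and 2246 in the trained wildtype mice, against 2158 in the untrained plakoglobin (+/-) mouse and 2719.8 in the untrained wildtype mouse. Trained plakoglobin (+/-) replicate 2 was the highest of all 10 mice, and the untrained plakoglobin (+/-) mouse lay among the trained ones. The ratio of geometric means was 0.881 and the log2 difference -0.34 (SE 0.285); it was -0.17 without the untrained wildtype mouse and -0.50 without the untrained plakoglobin (+/-) mouse. Tapbp encodes tapasin, which holds the empty heavy chain next to the transporter. By 1421812_at it read 6382, 9266, 6990.3 and 7891 in the trained plakoglobin (+/-) mice and 6419, 9819, 11307 and 6729 in the trained wildtype mice, against 12239.5 in the untrained plakoglobin (+/-) mouse and 11973 in the untrained wildtype mouse. All trained mice were lower, with trained wildtype replicate 3 closest to the untrained pair, a ratio of 0.655 and a log2 difference of -0.64 (SE 0.266). The dimmer probe set 1450378_at read 49.0 to 2774 in trained mice (median 1943), against 4281.5 in the untrained plakoglobin (+/-) mouse and 3094 in the untrained wildtype mouse, and gave -1.72 (SE 1.03). The lowest of these, under the floor, was trained wildtype replicate 2, the array with the highest GAPDH ratio.

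The 3 immunoproteasome subunits were lower in trained mice, each read by 1 probe set. Psmb9 (1450696_at) read 1232, 1058, 1005 and 607 in the trained plakoglobin (+/-) mice and 680.1, 765, 996 and 489.6 in the trained wildtype mice, against 2486 in the untrained plakoglobin (+/-) mouse and 1859 in the untrained wildtype mouse. The groups were well apart, with a ratio of 0.381 and a log2 difference of -1.64 (SE 0.360). Psmb8 (1422962_a_at) read 1643, 1286, 911 and 1148 in the trained plakoglobin (+/-) mice and 1186, 982, 1191 and 1496 in the trained wildtype mice, against 2221 in the untrained plakoglobin (+/-) mouse and 1935 in the untrained wildtype mouse. The gap to the untrained pair was smaller here, at a ratio of 0.583 and a log2 difference of -0.90 (SE 0.298). Psmb10 (1448632_at) read 4147.5, 3373, 3609 and 3049 in the trained plakoglobin (+/-) mice and 3966, 3931, 5099 and 3867 in the trained wildtype mice, against 5956 in the untrained plakoglobin (+/-) mouse and 6342 in the untrained wildtype mouse. It had a ratio of 0.625 and a log2 difference of -0.77 (SE 0.204), with trained wildtype replicate 3 closest to the untrained mice. With the 3 arrays of high GAPDH ratio left out, the differences were -1.76 for Psmb9, -0.82 for Psmb8 and -0.77 for Psmb10.

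The standard catalytic subunits, whose places these take, had smaller differences. Psmb5 had a log2 difference of -0.058 and Psmb6 of -0.13, both with overlapping groups. Psmb7 read 24481 to 66215 in trained mice (median 54555), against 72037 and 68968 in the untrained plakoglobin (+/-) and wildtype mice, with every trained mouse lower and a log2 difference of -0.38 (SE 0.355). Psme1, a subunit of the proteasome activator that interferon gamma induces, was at 0.36.

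The other genes of class I presentation went both ways. Of 57 listed genes, 40 had a probe set of their own on the array, 25 of them lower and 15 higher in trained mice. Every trained mouse was below both untrained mice at 2 of the 40 and above both at 2. Of the 40, 31 had passed the filter on low signals. Among the 8364 genes that passed it, every trained mouse was below both untrained mice at 364 (4.35%) and above both at 415 (4.96%). The list's median log2 difference was -0.055, beside 0.00089 over the 8364 genes. The non-classical heavy chain H2-M3, which presents formylated peptides, read 247.5 to 1083 in trained mice (median 1052), against 1914 and 2303 in the untrained plakoglobin (+/-) and wildtype mice, a log2 difference of -1.61 (SE 0.535). Cd1d2, a lipid-presenting molecule, was higher in trained mice at 104.5 to 775, against 42.0 and 61.5, both under the floor, in the untrained plakoglobin (+/-) and wildtype mice. Procr, a class I-like receptor of protein C on endothelium, had a log2 difference of 1.77 with overlapping groups. Neither Cd1d2 nor Procr passed the filter on low signals.

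The chaperones of peptide loading had overlapping groups: Calr (calreticulin) was at -0.28, Canx (calnexin) at 0.22, Pdia3 at -0.95, the tapasin relative Tapbpl at -0.56 and the peptide trimmer Erap1 at -0.21. Among regulators, the interferon regulatory factors Irf1 and Irf8 were at -0.51 and -0.58, and the NF-kappaB subunit Rela was at 0.12, all with overlapping groups. Nlrc5, the class I transactivator, and Nfkb1 had no probe set of their own and were not analysed here.

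Lists of markers of other cell types, and of the interferon response, moved with this difference to unequal degrees. Of 6 genes of MHC class II cells, 5 had every trained mouse below both untrained mice, with a median log2 difference of -2.05; their summed signal was 10685 to 20906 in trained mice, against 65058 and 58995 in the untrained plakoglobin (+/-) and wildtype mice. Of 12 interferon response genes 11 were lower and 6 had every trained mouse below, with a median of -0.80 and a summed signal of 14618 to 21906 in trained mice, against 34516 and 33934 in the untrained plakoglobin (+/-) and wildtype mice. Among them Gbp2 was at -1.56 and Igtp at -1.43, while Irf7 was at -0.16 and Irf9 at -0.21, both with overlapping groups. The 1 that was higher was Oas1a, at 0.97 with overlapping groups. Of 15 leukocyte markers 11 were lower and 3 had every trained mouse below, Ptprc (-1.30), C1qa (-1.25) and S100a9 (-1.08). The other 4 were higher, among them Itgam (1.18), which did not pass the filter on low signals, and Cd68 (0.050). Over all 15 the median was -0.52. The summed signal was 28237 to 46796 in trained mice, against 48031 and 48140.5 in the untrained plakoglobin (+/-) and wildtype mice.

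Of 8 endothelial markers 6 were lower, 0 had every trained mouse below, and the median was -0.15; their summed signal was 28083 to 35463 in trained mice, against 34348 and 30387 in the untrained plakoglobin (+/-) and wildtype mice. The 5 fibroblast markers summed to 64550.0 to 90193 in trained mice, against 85555 and 80493 in the untrained plakoglobin (+/-) and wildtype mice, with a median of -0.13. The 8 ventricular myocyte markers had a median of -0.13, with every trained mouse below at 3. No marker in these lists was at the floor on every array. What part the leukocytes, class II cells or the interferon response have in the class I difference was not tested.

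**Figure D3:**
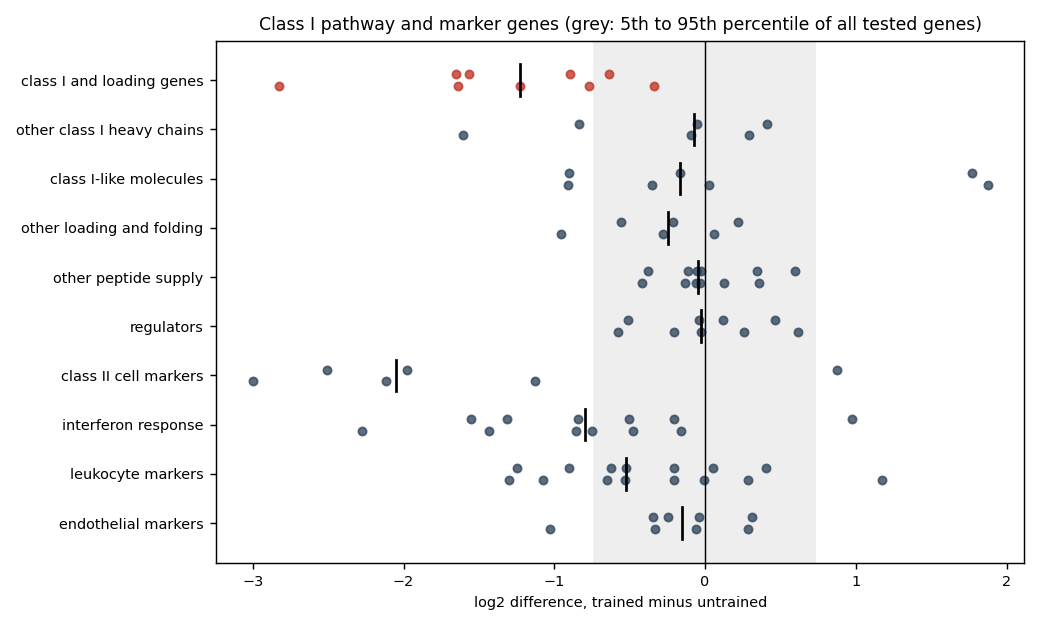
Log2 difference between trained and untrained mice for the 9 class I and loading genes (red), for the other class I pathway genes by role, and for marker lists, 1 point per gene with a black bar at each list's median. The grey band spans the 5th to 95th percentile of the genes tested, -0.73 to 0.73. Of the 9 genes 7 lie left of the band, with Tap2 and Tapbp inside it, and 5 of the 6 class II cell markers lie left of it too.

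Genotype could be tested apart from the choice of genes. Among the 8 trained mice, 0 of the 17 probe sets that passed the filter differed between plakoglobin (+/-) and wildtype (limma with a sex term, adjusted p = 1 for each), and 0 had an unadjusted p under 0.05. Over all 13576 tested probe sets 0 passed, which is 0%, and 273 (2.01%) had an unadjusted p under 0.05. H2-K1 averaged 10983 ± 6062 in trained plakoglobin (+/-) mice and 10897.5 ± 2734 in trained wildtype mice (SD, n = 4 each), a log2 difference of -0.14 (SE 0.329) with a 95% interval of -0.87 to 0.60. H2-D1 averaged 11351 ± 1699 in trained plakoglobin (+/-) mice and 11271 ± 1747 in trained wildtype mice (SD, n = 4 each). Its difference, the most tightly bounded of the 9 representing probe sets, was 0.011 (SE 0.153), interval -0.33 to 0.35. Other tested probe sets of H2-D1 lay elsewhere: 1425614_x_at gave 0.62 (SE 0.292), interval -0.032 to 1.27. Probe set 1451683_x_at gave -0.41 (SE 0.286), interval -1.05 to 0.23, and 1451784_x_at gave -0.028 (SE 0.175). A test that is not passed does not show that the genotypes are alike. Only the intervals bound what could be there, each for its own probe set and not for the gene.

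B2m averaged 16463 ± 2889 in trained plakoglobin (+/-) mice and 20349 ± 6191 in trained wildtype mice (SD, n = 4 each), a difference of -0.26 (SE 0.233), interval -0.78 to 0.26, and its second probe set gave -0.48 (SE 0.219). With single mice left out B2m ranged from -0.49, without trained wildtype replicate 1, to -0.096, without trained wildtype replicate 3, and it was -0.14 without trained plakoglobin (+/-) replicate 4. Tap1 averaged 1625 ± 373 in trained plakoglobin (+/-) mice and 1254 ± 509 in trained wildtype mice (SD, n = 4 each), a difference of 0.43 (SE 0.252), interval -0.13 to 0.996. It ranged from 0.28, without trained wildtype replicate 2, to 0.59, without trained wildtype replicate 3. Psmb9 was likewise at 0.41 (SE 0.341), interval -0.35 to 1.17, and Psmb10 at -0.25 (SE 0.178), interval -0.65 to 0.15. Tap2, Tapbp and Psmb8 lay at 0.00053, -0.14 and 0.023. The dimmer probe set of Tapbp, 1450378_at, gave 1.15 (SE 0.893), interval -0.84 to 3.15. With the 3 arrays of high GAPDH ratio left out, B2m was at -0.49, Tap1 at 0.14 and Psmb10 at -0.38. In that setting 0 of the 17 passed (limma, smallest adjusted p 0.709), and 0 passed over all probe sets tested. An unadjusted p under 0.05 was found at 3 of the 17. The share of all probe sets with such a p was not taken in that setting, so nothing is read from these 3. By their representing probe sets 5 of the 9 genes were on the positive and 4 on the negative side. The ranges of both trained groups overlapped at all 9. In every gene but Tap2 the order of the 4 groups thus had both untrained mice above both trained groups, with no order between the trained ones beyond their spread.

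Sex was compared in the same fit over the trained mice. Of the 17 probe sets 0 passed (adjusted p 0.509 to 0.971), where 7 of the 13576 did (0.0516%). By unadjusted p under 0.05 it was 1 of the 17 and 1198 of the 13576 (8.82%). The 1 was Tap1, which averaged 1762 ± 369 in trained males and 1117 ± 276 in trained females (SD, n = 4 each), a log2 difference of 0.67 (SE 0.252), interval 0.10 to 1.23, with an adjusted p of 0.509 in limma. H2-K1 averaged 13373 ± 4231 in trained males and 8508 ± 3247 in trained females (SD, n = 4 each), a difference of 0.68 (SE 0.329), interval -0.056 to 1.42. By their representing probe sets 8 of the 9 genes were higher in males. B2m was lower at -0.38 (SE 0.233), interval -0.90 to 0.14, while its second probe set gave 0.49. The median sex difference was 0.31 over the 9 genes, beside 0.0063 over the 13576 tested probe sets. The 9 genes were read in the same mice, so their signs are not independent of each other. Of the 4 males 2 are arrays of high GAPDH ratio, and of the 4 females 1. With these 3 arrays left out 0 of the 17 passed as well, where 17 of all probe sets tested did. An unadjusted p under 0.05 was found at 4 of the member probe sets. The share of all probe sets with such a p was not taken in that setting, so nothing is read from these 4.

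**Figure D4:**
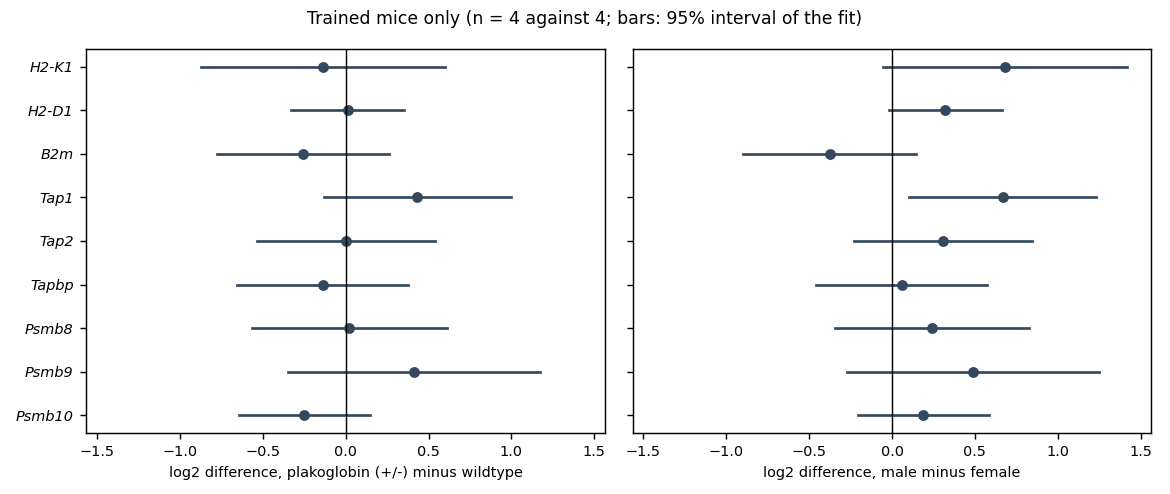
Log2 differences in the 8 trained mice for each gene's representing probe set, plakoglobin (+/-) minus wildtype on the left and male minus female on the right, with the 95% intervals of the limma fit. The genotype intervals all include 0, and among the sex intervals Tap1's does not before adjustment.

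The genotype by training term asks whether the gap between trained and untrained mice differed by genotype, and it is negative where the trained minus untrained difference was lower in plakoglobin (+/-) mice. Each untrained group holds 1 mouse that was assumed to vary like the others. Of the 17 probe sets 0 passed (limma, adjusted p = 1 for each) and 0 had an unadjusted p under 0.05. Over the 13576 probe sets 0 passed (0%) and 434 (3.2%) had an unadjusted p under 0.05. The estimates ran from -1.14 for B2m, interval -2.30 to 0.022, to 0.53 for Tap1, interval -0.69 to 1.75. H2-K1 was at -0.53, interval -2.18 to 1.12. With the 3 arrays of high GAPDH ratio left out the term still rested on 1 mouse in each untrained group, and no count is read from that fit. The B2m estimate rests on the untrained pair, whose order turned at its second probe set.

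Among the trained mice alone, 27 of the 36 pairs of the 9 genes had a positive Pearson correlation of log2 signals over the 8 mice, with a median of 0.233. The range was from -0.357, for H2-D1 and B2m, to 0.790, for H2-D1 and Tap1. Tap1 and Psmb9, which share the bases printed above between their start sites, had 0.624. H2-K1 and H2-D1, whose printed promoters differ at few bases, had 0.372. What part the promoters have in any of these values was not tested. The same values for other genes were not computed. The mice share arrays of unequal GAPDH ratio, and these values are descriptions with no p.

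The genes whose signals were most like H2-K1 over the 8 trained mice were Arhgef5 (Pearson 0.959, Spearman 0.952), Nrep (0.948, 0.976), Actn1 (0.934, 0.905), Ly96 (0.934, 0.905) and Zg16 (0.932, 0.976). Of these, Zg16 had a log2 difference of -1.60 between trained and untrained mice and the other 4 lay between -0.42 and 0.17. Those most like B2m were Limd1 (0.943, 0.952), Coil (0.937, 0.905), BC023105 (0.935, 0.881), Phkb (0.926, 0.857) and Fez1 (0.923, 0.952). Limd1 had a log2 difference of -1.25 between trained and untrained mice, and the other 4 lay between -0.24 and 0.84. The 9 described genes were left out of this ranking, and the 10 named are the highest of the other genes among the 8364 by this measure in 8 mice. It used only the representing probe sets of H2-K1 and B2m, so it describes these probe sets rather than the genes. Over the same mice the log2 signals of the 2 B2m probe sets had a Pearson correlation of only 0.257. Arrays of high GAPDH ratio gave several of the highest H2-K1 values, and their part in the ranking was not tested.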

How the data were processed

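RNA was extracted with TRIzol and turned into biotin-labelled cRNA, per the labels' protocols. The deposited values are linear intensity signals made by the authors with MAS5 5.0, per the submitters' processing notes, without detection calls. The 2% trimmed mean was 2501 to 2502 on all arrays, so the authors had scaled them alike. The number of arrays limits the precision.

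Signals were raised to a floor of 104 (10th percentile) and log2 transformed. A filter kept the 13576 probe sets whose mean log2 signal reached the 40th percentile, and these were fitted with limma 3.58.1 (lmFit, eBayes with intensity trend) in R 4.3.3, two-sided, with Benjamini-Hochberg adjustment over all and a threshold of 0.05. Only the genotype fit over the trained mice was checked on simulated data, with independent normal spread. The training and genotype by training fits were not checked in this way. Values of probe sets below the filter come from the same fit without it. The 8 trained mice gave the genotype and sex differences in 1 fit, and all 10 gave training and the genotype by training term. P values measure the spread between trained mice. This holds for the genotype by training term too, because each untrained group holds 1 mouse and adds no spread of its own. The sources used here give no array batch. By the array annotation 20393 probe sets have 1 symbol, 691 have several and 1606 are not listed. The brightest probe set of 1 symbol stands for a gene, which left 8364 genes tested. No genome build is named in the files.

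The members, lists, motifs and tests were chosen with earlier results of these data known. Named are all members, pathway genes with a training difference beyond 1 or -1, Psmb5, Psmb6 and Psmb7, and Jup. Also named are the 5 genes outside the members most correlated with H2-K1, and the same with B2m. Other pathway and marker genes are examples chosen after their values were seen. Alternatives were quantile normalization, log2 of the signal plus 1 with no floor, a floor of 351 (25th percentile), no filter or one at the 60th percentile, eBayes without trend, fits without the sex or genotype term, females only, other probe sets, each mouse left out, and no arrays of GAPDH ratio above 2. A filter at the 40th percentile for the training count was added after seeing the data.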

Additional observations from a re-analysis of the deposited data

Results flagged for a closer look

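In groups of 4 mice, 8 of the 50 checked (25 probe sets in both trained groups) had 1 mouse apart from the other 3. This was by Dixon's criterion at the 95% level, on log2 signals raised to the floor. The 1 in 20 of that level is for independent values with no floor, and these probe sets share arrays. The same count over all probe sets was not made, so nothing about the genes is read from the 8. Trained wildtype replicate 2, the array with the highest GAPDH ratio but an actin ratio of only 1.29, was the mouse apart at 3. These were H2-K1 1451931_x_at (7608, the highest of its group), H2-K1 1427746_x_at (1323, the lowest) and H2-D1 1452544_x_at (924.1, the highest). Trained plakoglobin (+/-) replicate 1 was low at H2-D1 1425614_x_at (753.1), and trained wildtype replicate 1 was high at Tap1 1449803_x_at (722.1); both are arrays of high GAPDH ratio as well. The other 3 were trained plakoglobin (+/-) replicate 2 at H2-D1 1451934_at (112.5, the lowest), trained plakoglobin (+/-) replicate 3 at Tap1 1448177_at (131.0, the only mouse of its group above the floor) and trained wildtype replicate 3 at Psmb10 (5099, the highest). Of the representing probe sets this touched only that of Psmb10.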

How the results depend on the processing

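The count of probe sets with every trained mouse below both untrained mice was 16 and lay between 11 (of 13, with the filter at the 60th percentile) and 18 over the alternatives. It reached 18 without the arrays of high GAPDH ratio, in females only, without trained wildtype replicate 1 and without the untrained wildtype mouse. The same count over all 22626 probe sets, 910, then became 1507, 2050, 1012 and 3245, and it was 2246 without the untrained plakoglobin (+/-) mouse, where the members' count was 16. With the filter at the 40th percentile, added after seeing the data, it was 14 of 17. The counts for genotype, sex and the genotype by training term stayed at 0 in every alternative run; without a filter the last called 66 probe sets elsewhere on the array. That term could not be fitted without either untrained mouse. The training differences do not depend on the 4 trained males, so leaving males out could not move them. Another probe set changed the sign for H2-D1 (0.37 and 0.60) and Tap1 (1.02 and 0.083). Of 99 alternatives for the genotype differences 20 changed sign. With 1 mouse left out, the ranges of the 5 genes that changed sign were -0.43 to 0.15 for H2-K1, -0.051 to 0.067 for H2-D1, -0.15 to 0.13 for Tap2, -0.30 to 0.026 for Tapbp and -0.10 to 0.20 for Psmb8. With the 3 arrays of high GAPDH ratio left out, H2-D1 was at -0.0074, Tap2 at -0.055 and Psmb8 at -0.27, and with quantile normalization Tap2 was at -0.044 and Psmb8 at -0.062. The cause was not tested. No paired analysis was possible because no label ties a mouse to its littermate. The log2 differences of dim probe sets depend on the floor, and 2 untrained mice set the size of every training difference.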

Other observations

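Class I-like molecules outside peptide presentation went both ways. Hfe, which regulates iron uptake, read 2586 to 6449.7 in trained mice (median 3714), against 6387 and 5193 in the untrained plakoglobin (+/-) and wildtype mice, a log2 difference of -0.91 (SE 0.249), and the groups overlapped. Fcgrt, the neonatal Fc receptor, which like the classical heavy chains pairs with beta-2 microglobulin, was at -0.35 (SE 0.238), and Mr1, which presents vitamin metabolites, at 0.028; the groups overlapped at both. In the peptide supply list Psme4, a proteasome activator, had every trained mouse higher, at 22064 to 29434 in trained mice (median 27226), against 21590.2 and 21159 in the untrained plakoglobin (+/-) and wildtype mice, a log2 difference of 0.34 (SE 0.180). Ciita, the transactivator of class II genes, was higher in trained mice at 0.87 with overlapping groups, beside class II genes that were lower. These genes were chosen after their values were seen.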
